A study of Homo sapiens with 18 samples.

Results

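In IL-1β-treated A549 human lung adenocarcinoma cells, 372 distal sites carried the NF-κB subunit RELA without glucocorticoid receptor (GR) and carried less RELA when budesonide was added. They were selected on the intensities themselves, from 11571 sites of 400 bp in the deposited table (GRCh38). A member lay more than 1 kb and at most 200 kb from the nearest gene start, had a RELA intensity of at least 4 with IL-1β, had a GR intensity under 4 with budesonide and with IL-1β-plus-budesonide, and had a RELA intensity lower by at least 1 with IL-1β-plus-budesonide than with IL-1β. Of the 11571 sites, 1840 met every criterion but the last, and the 372 members are part of these. The other 1468 are called the remaining RELA-only sites here. "RELA-only" and "without GR" mean a GR intensity under 4 with both treatments, not an absence of GR.

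The series held 18 wild-type A549 libraries in 9 groups of 2, from independent experiments: 8 GR, 8 RELA and 2 input libraries. Serum-starved cells were left unstimulated (NS) or were treated for 1 h with 1 ng/mL of IL-1β, with 300 nM of budesonide or with the combination (IL-1β-plus-budesonide, or cotreatment). All groups thus share 1 cancer line and 1 early time. The table gives 1 pooled intensity per site, factor and treatment, for GR with budesonide or cotreatment and RELA with IL-1β or cotreatment, so no value below has an error over libraries, the depth is unknown and no difference could be set against replicate spread. Intensities run from 0 upwards on a scale that behaves as a logarithm, with a base not given in the sources used here, so differences are given in intensity units and not as folds. A lower RELA value in bulk chromatin may mean fewer cells with RELA at the site or less RELA in each cell, and these cannot be told apart.

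RELA (p65) is the transactivating subunit of NF-κB. IL-1β causes its inhibitor IκBα to be degraded, whereupon RELA enters the nucleus and binds κB elements in promoters and enhancers of inflammatory genes. Budesonide is an inhaled glucocorticoid used in asthma. It activates GR, which binds palindromic glucocorticoid response elements (GREs), and can also lower the expression of many inflammatory genes without direct contact of GR with their DNA being established. AP-1 factors are FOS and JUN dimers that bind TGANTCA and often occupy the same enhancers as NF-κB and GR.

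Of the 41 members named below, 15 hold a match to the κB consensus of 9 defined positions within 200 bp around the centre, and the DNA of 8 of these is shown first, in order of the RELA difference. Each line gives 100 bases of the GRCh38 reference, 5′ to 3′, with the κB match in capitals and the nearest gene start as the name. The windows of EDN1, IL1B and CXCL8 hold the same element, GGGAAATTCC, and those of CAMK2N1, GTPBP4 and OR2B6 share GGGATTTTCC.
CAMK2N1 site, chr1:20444261-20444360, minus strand: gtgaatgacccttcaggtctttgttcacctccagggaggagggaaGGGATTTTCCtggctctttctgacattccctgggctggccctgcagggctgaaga
GTPBP4 site, chr10:974250-974349, plus strand: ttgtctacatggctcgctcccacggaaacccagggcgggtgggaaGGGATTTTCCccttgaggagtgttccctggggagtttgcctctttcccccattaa
C6orf89 site, chr6:36774624-36774723, plus strand: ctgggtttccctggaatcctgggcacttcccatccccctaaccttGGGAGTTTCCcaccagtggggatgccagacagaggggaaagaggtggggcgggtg
ATP1B1 site, chr1:168923787-168923886, plus strand: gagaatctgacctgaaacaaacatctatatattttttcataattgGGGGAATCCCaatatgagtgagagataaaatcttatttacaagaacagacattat
EDN1 site, chr6:12277584-12277683, plus strand: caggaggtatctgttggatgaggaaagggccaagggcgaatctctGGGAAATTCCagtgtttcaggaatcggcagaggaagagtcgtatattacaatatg
IL1B site, chr2:112814476-112814575, minus strand: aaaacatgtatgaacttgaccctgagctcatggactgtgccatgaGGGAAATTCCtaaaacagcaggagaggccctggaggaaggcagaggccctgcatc
OR2B6 site, chr6:27791881-27791980, minus strand: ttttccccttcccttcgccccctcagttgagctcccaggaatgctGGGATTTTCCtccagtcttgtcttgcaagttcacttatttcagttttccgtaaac
CXCL8 site, chr4:73726079-73726178, plus strand: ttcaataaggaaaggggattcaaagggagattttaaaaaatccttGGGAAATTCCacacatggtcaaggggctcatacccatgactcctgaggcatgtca

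Most members had no such match, so the named sites of largest difference without one but with an AP-1 match are shown beside them, with the AP-1 letters in capitals.
BASP1 site, chr5:17128081-17128180, plus strand: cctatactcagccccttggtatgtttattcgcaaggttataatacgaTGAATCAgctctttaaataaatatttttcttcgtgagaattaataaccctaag
PFDN4 site, chr20:54345375-54345474, plus strand: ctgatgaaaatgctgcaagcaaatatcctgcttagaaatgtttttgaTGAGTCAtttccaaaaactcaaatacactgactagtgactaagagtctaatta

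The criteria set the size of the fall, which is given as a description. The share lower by at least 1 was 7.55% of all 11571 sites (874), 11.5% of the 6308 sites with RELA of at least 4 after IL-1β (728) and 20.2% of the 1840 distal RELA sites without GR. Since the members were chosen by this difference, nothing is read from their own count. No distal RELA site without GR was higher by 1 or more with cotreatment, and 88.2% were lower to any extent. This class was chosen on high RELA with IL-1β and low GR with cotreatment, which favours lower values, so its lean is a description only. Among sites with RELA of at least 4 after IL-1β, lower values to any extent were common in every class. They were seen at 70.8% of the 6308 RELA sites, at 63.8% of distal sites that GR joined with cotreatment only and at 53.3% of those with GR after budesonide. Without that minimum the picture differed. Of all 11571 sites, 46.6% were lower, the median difference was -0.07, and 2475 were higher by at least 1 beside the 874 lower. At the 1156 distal RELA sites that reached a GR intensity of 4 with cotreatment only, 78 were lower and 55 higher by at least 1. At the 1771 with GR of 4 or more after budesonide, 85 were lower and 151 higher. The median difference (IL-1β minus cotreatment) was 0.56 over distal RELA sites without GR, 0.20 where GR joined with cotreatment and 0.05 where GR was bound with budesonide. The classes were set by RELA and GR intensities of the same table, so nothing is concluded from the order of these medians.

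RELA after IL-1β had a median intensity of 5.02 over the members (lowest 4.02, highest 7.21), beside 5.07 over the remaining RELA-only sites. The starting level of RELA was thus similar in the middle of both classes. With cotreatment the members' median was 3.62 (lowest 0.27, highest 6.18) and that of the remaining sites 4.71. The members' difference had a median of 1.30, with quartiles of 1.14 and 1.61 and a highest value of 3.80. Most lay near the threshold: 248 members were lower by 1 to 1.5, 88 by 1.5 to 2 and 36 by 2 or more. RELA was still at least 4 with cotreatment at 99 members (26.6%), against 1278 remaining sites (87.1%). It was under 2 at only 9 members and at 0 at none, so no member was at the floor of the scale.

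**Figure D1:**
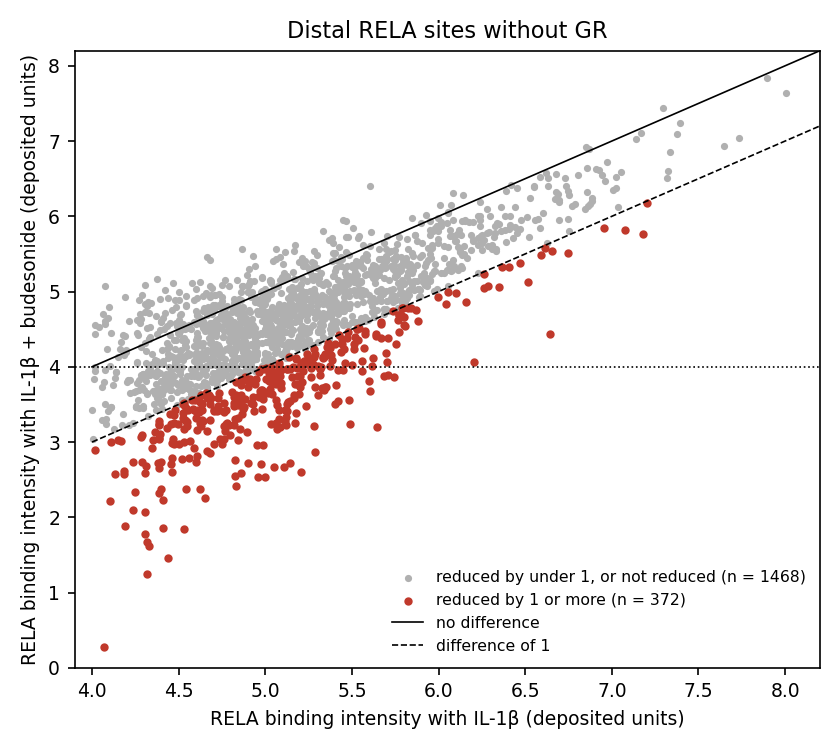
RELA binding intensity (deposited units) with IL-1β on the horizontal axis and with IL-1β-plus-budesonide on the vertical axis, 1 point per distal RELA site without GR. The 372 members (red) lie on or under the dashed line of a difference of 1 by construction, and 99 of them stay at or above the dotted line at 4; the 1468 remaining sites are grey.

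The criteria cut through a continuous range. Just inside the threshold were the sites nearest CEACAM16, GIMAP8 and CD47, each with a difference of 1.00, and just outside were those nearest EXT1, IDO2 and TRIML2, whose differences also round to 1.00. The member site of PRIM1 had the lowest RELA after IL-1β, 4.02, while a site of TEX11 missed that minimum at 3.97. The member with the highest GR after budesonide was the EFEMP1 site at 3.99, and an ABCA8 site missed the limit at 4.01. With cotreatment the DACT2 and SOWAHB sites had GR of 3.99, and an LGR4 site at 4.03 and an IER3 site at 4.04 fell outside.

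The share of members varied with RELA strength. They made up 20.7% of the 256 RELA-only sites with RELA of 4 to 4.5, 21.3% of 596 from 4.5 to 5, 23.5% of 531 from 5 to 5.5, 16.1% of 280 from 5.5 to 6 and 12.4% of 177 at 6 or more. Strong members were therefore fewer, with 22 at a RELA intensity of 6 or above, 170 from 5 to 6 and 180 from 4 to 5.

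GR values under the limit of 4 were low but mostly above the floor. GR had a median of 2.12 with budesonide and 2.87 with cotreatment over the members, and was at 0 at 35 and 19 members. The corresponding medians of the remaining sites were 2.18 and 3.11. GR was higher with cotreatment than with budesonide at 279 members (75.0%) and at 1218 remaining sites (83.0%). With cotreatment it lay between 3 and 4, just under the limit, at 166 members (44.6%) and at 55.8% of the remaining sites, and was under 2 at 86 members. The members thus had somewhat lower GR values than the remaining sites within the range that the rule allowed.

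The members differed from the remaining sites in their sequence, which the rule did not use. A κB match lay within 200 bp around the centre at 113 of 372 members (30.4%, 95% Wilson interval 25.9 to 35.2) and at 699 of 1468 remaining sites (47.6%, 45.1 to 50.2). An AP-1 match, TGANTCA, showed the opposite order, at 124 members (33.3%, 28.7 to 38.3) and 297 remaining sites (20.2%, 18.3 to 22.4). Neither pair of intervals overlapped, but the intervals cover counting error over sites only, the sites come from the same libraries, and no test was run. Both strands were searched. Among all 11571 sites the shares were 18.7% for κB and 21.0% for AP-1. In windows of equal length 2000 bp away from the members' centres, the shares were 1.88% and 5.65%. No κB match overlapped an AP-1 match in either class.

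At the distal RELA sites that GR joined with cotreatment only, the κB share was 40.2% and the AP-1 share 26.5%. At those with GR after budesonide they were 10.3% and 23.4%. The members' AP-1 share was the highest of the 4 distal classes, and their κB share stood below that of both other classes without GR after budesonide. Allowing 8 of the 9 κB positions, a form found in 26.1% of the members' windows 2000 bp away, gave 70.2% of members and 81.7% of remaining sites. Of the 259 members without a full κB match, 148 had this looser form and 111 did not, and 43 of those 111 had an AP-1 match.

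Both elements were then combined over the 1840 distal RELA sites without GR. Members made up 86 of 651 sites with κB only (13.2%, 10.8 to 16.0), 27 of 161 with both (16.8%, 11.8 to 23.3), 162 of 768 with neither (21.1%, 18.4 to 24.1) and 97 of 260 with AP-1 only (37.3%, 31.7 to 43.3). The median RELA difference of these groups was 0.43, 0.57, 0.60 and 0.77. Membership is defined on this difference, so the medians describe the same quantity as the shares and add no separate support. The share of a group's sites that were reduced was thus highest with AP-1 and no κB match, and lowest with κB and no AP-1 match. By number, the group with neither element held the most members, 162. Median RELA after IL-1β in these groups was 5.17, 5.10, 4.97 and 5.00, in the same order of groups, so that the κB sites also started a little higher.

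**Figure D2:**
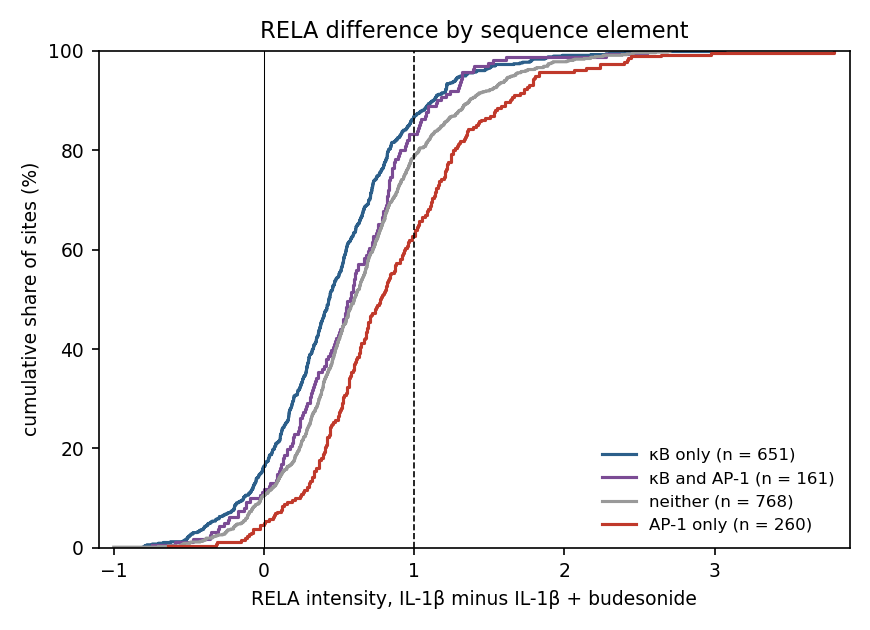
Cumulative share (%) of distal RELA sites without GR by the RELA intensity with IL-1β minus that with IL-1β-plus-budesonide (deposited units), 1 curve per combination of κB and AP-1 matches; the dashed line marks the difference of 1 that defines the members. The AP-1-only curve (260 sites) lies furthest right, with a median of 0.77, and the κB-only curve (651 sites) furthest left, with a median of 0.43.

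The order held at each level of RELA after IL-1β, although the highest bin held only 22 members and no intervals were computed. In bins of RELA after IL-1β, chosen after the data were seen, the κB share of members was below that of remaining sites in all 5 bins, from 20.8% against 35.5% at 4 to 4.5 up to 36.4% against 60.6% at 6 or more. The AP-1 share was above it in all 5, from 30.2% against 17.2% in the lowest bin to 22.7% against 11.6% in the highest, with the widest gap at 5 to 5.5 (36.0% against 18.5%). Base composition moved with membership too: the GC content of the 400 bp had a median of 42.25% over members and 44.0% over remaining sites. Split at the overall median of 43.75%, the κB share was 19.3% of members against 35.4% of remaining sites in the lower part and 45.0% against 59.4% in the upper part. The AP-1 shares were 31.6% against 20.6% and 35.6% against 19.9%. Both differences were therefore present in each part, and any further role of base composition was not tested.

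Where the members had a κB match, it was less tightly centred. The match nearest the centre had a median distance of 15 bp over 113 members and 12 bp over 699 remaining sites, and lay within 25 bp at 65.5% (74) and 78.1% (546). Several matches were present at 33 members and 234 remaining sites, and several AP-1 matches at 19 members. The most frequent κB element of the members was GGGAATTTCC (14 members, 80 remaining sites), followed by GGGAATTCCC (10 and 28) and GGGGAATTCC (9 and 68). GGGAAATTCC, the commonest element of the remaining sites, was found at 8 members and 90 remaining sites. The form GGGACTTTCC was found at 4 and 43.

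The GRE, searched as its palindrome of 12 defined positions with at least 10 met, was found at 0 of 372 members (Wilson upper limit 1.02%) and at 13 remaining sites (0.886%). The share was 6.04% at distal RELA sites with GR after budesonide and 12.4% of all sites. Of the members' windows 2000 bp away, 11 held a match (2.96%). The remaining elements differed less. C/EBP (TTGCNNAA) was found at 24.7% of members and 25.1% of remaining sites, TEAD (GGAATG) at 18.8% and 14.8%, forkhead (TGTTTAC) at 8.06% and 6.40%, SP/KLF (GGGCGG) at 7.26% and 6.13%, RUNX (TGTGGTT) at 4.84% and 4.77%, and the IRF element at 2.96% and 2.86%. The intervals of each of these pairs overlapped. A TEAD match overlapped a κB match at 4 members and 14 remaining sites. The ETS element CCGGAAG was found at 2 members (0.538%, interval 0.148 to 1.94) and 33 remaining sites (2.25%, 1.61 to 3.14).

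The genomic setting of the members was close to that of the remaining sites. In GENCODE 44, 53.0% of member centres lay in introns of canonical transcripts, 32.8% between genes, 11.8% in gene bodies outside the canonical transcript, 2.15% in untranslated or non-coding exons and 0.269% (1 site) in a coding exon. The remaining sites gave 52.7%, 34.0%, 9.88%, 2.66% and 0.817%. The nearest gene start was 1 to 10 kb away for 12.1% of members, 10 to 50 kb for 40.1% and 50 to 200 kb for 47.8%, with a median of 47.25 kb, beside 47.2 kb for the remaining sites. Members lay downstream of the nearest start at 239 sites and upstream at 133.

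Nor did the members lie apart from GR sites more than the remaining sites did. The nearest site with a GR intensity of 4 or more with either treatment was a median of 55.0 kb away, beside 58.2 kb for the remaining sites, 23.4 kb for those joined by GR and 11.1 kb for those with GR after budesonide. A GR site lay within 5 kb of 53 members (14.2%, 11.1 to 18.2) and 180 remaining sites (12.3%, 10.7 to 14.0), and within 50 kb of 47.6% and 47.5%. The nearest other RELA site was 50.3 kb away for members and 70.8 kb for remaining sites (medians).

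The members were nearest to 339 genes, of which 32 had several members and ATP1B1 alone had 3. There were 22 pairs of members within 50 kb of each other. Matching counts for the remaining RELA-only sites were not made. The closest pair, 0.75 kb apart, lay at KYNU, which encodes the tryptophan-catabolising enzyme kynureninase, with RELA differences of 1.36 and 1.14. Near the bradykinin receptor genes BDKRB2 and BDKRB1 on chromosome 14, 3 members lay within 7.652 kb and had differences of 1.15, 1.55 and 2.64. At SMAD3, a transducer of TGF-β signals, a pair 5.449 kb apart had differences of 1.06 and 1.12. Members nearest IL1A and IL1B, the neighbouring genes of IL-1α and IL-1β, lay 15.002 kb apart and had differences of 1.28 and 1.49. Neighbouring members share chromatin and are not independent observations.

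The member of the largest difference was nearest BASP1, which encodes a membrane-associated signalling protein (chr5:17127901-17128300). Its RELA intensity was 4.07 with IL-1β and 0.27 with cotreatment, a difference of 3.80, and its GR intensity was 0.41 with budesonide and 2.55 with cotreatment. The next was nearest CAMK2N1, which encodes an inhibitor of CaM kinase II, at chr1:20444116-20444515 between genes, where RELA was 4.32 and 1.25. A site nearest the prefoldin subunit gene PFDN4 (chr20:54345292-54345691) had RELA of 4.44 and 1.46. At these 3 sites RELA with IL-1β was only a little over the minimum, and cotreatment left it well under 2.

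The other members of the 10 largest differences had the same form, apart from those of IL23A and CREB3L2, which started higher. In intron 2 of FUT8, a fucosyltransferase gene, RELA was 4.33 and 1.62. The CAV2 site, near the gene of the caveolar protein caveolin-2, had RELA of 4.53 and 1.84, with GR of 0 and 0.37. The BDKRB1 site had RELA of 4.32 and 1.68, the GTPBP4 site 4.41 and 1.86, and the C6orf89 site, which lies in intron 10 of CPNE5, 4.31 and 1.77. IL23A encodes the p19 subunit of the cytokine IL-23, and its member lay 3.65 kb from the gene start (chr12:56337824-56338223), with RELA of 5.21 and 2.60 and GR of 2.89 and 3.55. In intron 8 of CREB3L2, a transcription factor gene, RELA was 5.00 and 2.54.

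The 10 members with the highest RELA after IL-1β kept RELA above 4 with cotreatment. The strongest was nearest VDAC3, a mitochondrial channel gene, where RELA was 7.21 with IL-1β and 6.18 with cotreatment. It was followed by OR2B6 (7.18 and 5.76), MAMLD1 (7.08 and 5.82) and SLC39A8, a zinc transporter gene that NF-κB is known to induce (6.96 and 5.85). HIVEP1, ARHGAP5, SOWAHB and HSD17B4 had RELA of 6.66, 6.61, 6.59 and 6.52 with IL-1β and 5.54, 5.58, 5.48 and 5.13 with cotreatment. Apart from PTGS2, the differences of these 10 members lay between 1.02 and 1.42.

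The largest difference among the strong sites was at the member nearest PTGS2, the gene of cyclooxygenase-2, which makes prostaglandins in inflammation. This site, 61.6 kb downstream of the start and between genes (chr1:186618453-186618852), had RELA of 6.64 with IL-1β and 4.44 with cotreatment, a difference of 2.21, with GR of 1.38 and 1.71. The other 6 RELA sites assigned to PTGS2 had differences of 0.21 to 0.98. The strongest of them, 35.4 kb upstream, had RELA of 8.80 and 7.87 and GR of 6.51 and 7.19, and the site at the gene start had RELA of 6.28 and 5.84 with GR of 4.25 and 5.20. All 7 RELA sites of PTGS2 were therefore lower with cotreatment, as were 70.8% of all 6308 RELA sites. The smallest PTGS2 difference, 0.21, was under the median of 0.32 over those 6308 sites.

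Chemokine and cytokine genes, from a list of 27, had 21 distal RELA sites without GR, of which 5 were members (23.8%). The list was not complete: it included the endothelin gene EDN1, and the IL23A member above was not counted in it. CXCL8 encodes the neutrophil attractant interleukin-8, and its member (chr4:73725928-73726327), 14.2 kb upstream, had RELA of 6.75 with IL-1β and 5.51 with cotreatment, with GR of 0.19 and 2.07. At the CXCL8 start RELA was 7.77 and 7.82, with GR of 4.73 and 6.05. At a site 5.546 kb upstream it was 6.71 and 7.11, with GR of 0.01 and 6.06. The CXCL8 region thus held a reduced distal site without GR beside sites with GR where RELA was not lower.

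CSF2 encodes the growth factor GM-CSF, and its member had RELA of 4.29 and 2.74 with GR of 2.10 and 1.93. EDN1 encodes the vasoconstrictor endothelin-1, and its member 12.6 kb upstream had RELA of 4.98 and 3.44 with GR of 0.89 and 0. Of the 11 other RELA sites assigned to EDN1, 9 had GR, and their differences ran from -1.90 to 0.94. The IL1B member had RELA of 4.86 and 3.37, and the only other RELA site of IL1B, 24.6 kb from the start, had 6.19 and 5.56. The IL1A member had 5.67 and 4.39.

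Of the genes that restrain or form NF-κB, 11 distal RELA sites without GR included 2 members (18.2%). TNFAIP3 encodes A20, a ubiquitin-editing brake on NF-κB, and its member lay 18.1 kb upstream, in intron 3 of the non-coding gene WAKMAR2 (chr6:137848691-137849090). RELA there was 5.35 with IL-1β and 3.74 with cotreatment, with GR of 1.86 and 2.98. The other 11 RELA sites of TNFAIP3 had differences of -0.86 to 0.75, and 8 of them had GR. At the TNFAIP3 start RELA was 7.63 and 7.24. TNIP1 encodes an A20 partner, and its member had RELA of 6.26 and 5.24, while its 6 other RELA sites had differences of -0.20 to 0.43.

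Genes of IL-1, TNF and Toll-like receptor signalling had 13 such sites and 2 members (15.4%). These were MAP3K8, a kinase gene, with RELA of 5.58 and 4.47, and TNFRSF10B, a TRAIL receptor gene, with 5.77 and 4.47. Adhesion, matrix and protease genes had 22 sites and 3 members (13.6%), at the integrin genes ITGB1 (5.51 and 4.24) and ITGB8 (4.71 and 3.41) and the protease inhibitor gene SERPINE2 (5.44 and 4.37). The 16 survival and death genes of the list had 3 sites and no member. TNFRSF10B, which the paper also places under apoptosis, was counted above with the signalling genes. The list was not complete. Genes outside it that the paper places under apoptosis, such as PMAIP1, TNFAIP8 and RELT, were nearest to members.

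Stress, lipid mediator and oxidative enzyme genes had 16 sites and 3 members (18.8%), PTGS2 being 1 of them. NAMPT encodes an enzyme of NAD synthesis, and its member had RELA of 5.06 and 3.26, with GR of 3.46 and 3.94, close to the limit. SGK1, a kinase gene that glucocorticoids are known to induce, had a member with RELA of 4.63 and 3.42 and GR of 1.63 and 1.69. Transcription factor genes had 17 sites and 5 members (29.4%). BATF3 and FOSL2, both of the AP-1 family, had members with RELA of 5.13 and 3.51 and of 5.02 and 3.96. TEAD1, ETS1 and STAT3 had members with 5.17 and 3.59, 5.54 and 4.51, and 5.00 and 3.99. The STAT3 member had GR of 3.97 and 3.98, just under the limit with both treatments.

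Over all 7 lists, 20 of 103 distal RELA sites without GR were members (19.4%), close to the 20.2% of all such sites, and none was higher by 1 or more. The same lists had 283 RELA sites with GR of 4 or more, of which 12 were lower by at least 1, with a median difference of 0.19 beside 0.61 at the 103 sites without GR. The listed genes thus had reduced sites about as often as distal RELA sites without GR in general, and nothing particular to them is read from these counts.

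ATP1B1, which encodes a subunit of the sodium pump, was the only gene with 3 members. Their RELA was 5.12, 5.13 and 5.06 with IL-1β and 3.33, 3.97 and 3.94 with cotreatment. Their GR with cotreatment was 0, 3.84 and 3.45. The 5 other RELA sites assigned to ATP1B1, of which 4 had GR, had differences of -0.34 to 0.82.

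Reduced distal sites were often not the only RELA site of their gene. Of the 372 members, 237 were assigned to a gene with another RELA site that was not a member. The matching share of the remaining RELA-only sites was not computed, so nothing particular to the members is read from this count. These 207 genes held 578 other RELA sites, whose differences had a median of 0.39, with 48 (8.3%) lower by at least 1. GR was bound at 391 of the 578. The RELA sites of the remaining genes numbered 5358, with GR bound at 3463, a median difference of 0.26 and 5.75% lower by at least 1. GR was thus bound at most RELA sites of both sets of genes. Assignment is by the nearest gene start as deposited, and whether a site acts on that gene was not tested.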

How the data were processed

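The ChIP-seq series of A549, an established human line, comprised 18 libraries in 9 groups of 2. The authors aligned reads to GRCh38 with Bowtie2 2.4.4, and the submitters' processing notes also list bcl2fastq, FastQC 0.10.1, SAMtools, MACS2 2.2.7.1 and DiffBind 3.2. The deposited binding intensity is a score that behaves as a logarithm, pooled by the authors over libraries in an unstated way. The deposited distance to the nearest gene start set which sites were distal. The table has 46284 lines, 4 for each of 11571 sites. Its columns of fold over NS, FDR, significance, behavior and trend hold the authors' own comparisons and were not used. Depth is unknown, and intensities of NS and input libraries were not analysed here.

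Differences are RELA intensity with IL-1β minus that with IL-1β-plus-budesonide. Without values per library no test could be run. Shares have 95% Wilson intervals, which cover counting error over sites only. Elements were searched on both strands in 200 bp around each centre of the GRCh38 reference, needing every defined position, except that the GRE needed 10 of 12. The search was tested on simulated data with planted elements. A member's position was read at its centre from GENCODE 44. Scripts ran in Python 3.11.15 with pysam 0.24.0 for the genome, SciPy 1.17.1 for intervals, pandas 2.3.3 and NumPy 2.4.6 for the tables and Matplotlib 3.10.9 for plots.

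The named members are the 10 of largest difference, the 10 of highest RELA with IL-1β, those of genes with 3 or more members and those nearest a gene of 7 lists (172 genes). Sequences are of 8 of the 15 named members with a κB match, taken in order of the difference with TNFRSF10B passed over, and of 2 with an AP-1 match in place of κB. Sites named at the thresholds, close pairs, other RELA sites of the named genes and apoptosis genes named outside the lists were chosen after their values were seen. The members and lists were chosen with earlier results of these data known. Alternatives concerned the thresholds, a centring of the RELA difference, the search window and the κB match.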

Additional observations from a re-analysis of the deposited data

How the results depend on the processing

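Each value rests on pooled intensities without error, so a site near a threshold could change class with another library, and neither depth nor scaling between libraries can be judged. No replicate could be left out. No paired analysis was possible because the table gives no values per library. The number of members was 372. It was 192 with a RELA minimum of 5, 1022 with a difference of at least 0.5, 124 with at least 1.5, 206 with GR under 3 with cotreatment and the budesonide limit kept at 4, 193 with GR under 3 with each treatment, and 180 after centring the median difference of all 6308 RELA sites, 0.32, on 0. That centring moved the members' median difference from 1.30 to 0.99. With distances above 3000 bp it was 362. No member lay at the lowest cotreatment intensity of the table, so leaving such sites out changed nothing.

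The κB share of members (30.4%) became 70.2% with 8 of 9 positions, 21.8% at a difference of 1.5 and 37.8% at 0.5. Members minus remaining sites, in percentage points, was -17.2, and became -11.5 with 8 of 9 positions and -24.0 at a difference of 1.5. The other 7 settings gave -19.5 to -14.3. The AP-1 share (33.3%) became 41.9% over the whole site, 19.9% within 100 bp, 27.6% at a difference of 0.5 and 27.5% with GR under 3 with each treatment. Its gap of 13.1 points became 7.43 within 100 bp and was 8.70 to 14.8 in the other 7 settings. The κB share was thus lower, and the AP-1 share higher, in members than in remaining sites under every setting tried. The AP-1 share at a RELA minimum of 5 and at a difference of 0.5, both shares with GR under 3 or distances above 3000 bp, and the count with GR under 3 with each treatment were alternatives chosen after seeing the data. The median distance to a GR site was 55.0 kb, and 111.15 kb to one of 5 or more.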

Other observations

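Around BASP1, the gene nearest the member of largest difference, 11 other RELA sites were listed, and 6 of them were lower by 1 or more with cotreatment, with differences of 1.04 to 1.52. Of these 6, 4 had GR of 4 or more with cotreatment (4.49 to 5.03), and the site 9.196 kb upstream of the BASP1 start was higher, with RELA of 5.06 with IL-1β and 5.57 with cotreatment. Around MAMLD1 the 2 other RELA sites, both joined by GR with cotreatment, had differences of 0.91 and 1.55. Both regions were picked after their values were seen, and no explanation was tested.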
